A study of Mus musculus with 30 samples.

Results

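Oral hyperplasia, the thickened epithelium that precedes dysplasia in this mouse model of oral squamous cell carcinoma, was represented by 8 of the 30 samples sequenced. Their sets were chosen by the level of S100a9 in CPM, which expresses a gene's reads relative to all reads counted in that library. The 3 samples at 50 CPM or more (A02, A05 and A06) are called high here, and the 5 samples below 50 CPM (A01, A03, A04, A07 and A08) are called low. S100a9 was 8.62 CPM in A01, 16.7 in A03, 6.21 in A04, 11.02 in A07 and 29.1 in A08, against 219.9 in A02, 796.9 in A05 and 141.9 in A06. The samples nearest to the limit were A08 below it and A06 above it. Because S100a9 itself made the division, and every other gene was read from the same 8 libraries, the differences between high and low hyperplasia are given as descriptions with no test. Tests were run only in the 22 samples of other stages, which the division did not use.

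The other stages were normal tissue (3 samples), dysplasia (7), carcinoma in situ (6) and invasive carcinoma (6). All 30 samples carry 1 protocol, the normal ones included: male C57BL/6J mice, 6 weeks old at the start, received the carcinogen 4-nitroquinoline-1-oxide (4NQO) at 100 ug/mL in their water over 10 weeks. The labels therefore do not say whether the mice called normal took 4NQO. The tissue is labelled oral squamous cell carcinoma in every sample, and nothing in the labels says that samples came from separate mice, so p-values speak only of the spread from sample to sample. Total counts were 17725604 to 22400499 in the high and 19241316 to 26625949 in the low samples. Krt13, a keratin of oral suprabasal epithelium, was at 20217 to 28204 CPM in all 8 hyperplasia samples. Mitochondrial genes took 8.94% to 10.6% of the counts in the high and 7.20% to 10.4% in the low samples.

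S100a9 and S100a8 encode small calcium-binding proteins that pair to form calprotectin, an abundant protein of neutrophils that keratinocytes also make when they are wounded or inflamed. Released calprotectin binds metal ions that microbes need and acts on innate immune receptors, which is why the pair is counted among the alarmins. The Sprr2 genes lie on the same chromosome and encode small proline-rich proteins, which transglutaminases cross-link into the cornified envelope of stratified epithelia. Healthy epithelium makes little of most of them, and injury and inflammation are known to induce them.

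The start regions of S100a9, S100a8 and 3 Sprr2 genes are printed to show the calprotectin pair beside members of the family with the most separated genes. Each line holds the 250 bases before the transcription start in RefSeq (GRCm38.p6), 5′ to 3′ on the gene's own strand. Capitals mark matches on either strand to an AP-1 motif (TGANTCA), a C/EBP motif (TTNNGNAA), an ETS motif (GGAAGT), the NF-kB consensus or a TATA box (TATAAA), where N is any base.
S100a9 (chr3:90695722-90695971, - strand): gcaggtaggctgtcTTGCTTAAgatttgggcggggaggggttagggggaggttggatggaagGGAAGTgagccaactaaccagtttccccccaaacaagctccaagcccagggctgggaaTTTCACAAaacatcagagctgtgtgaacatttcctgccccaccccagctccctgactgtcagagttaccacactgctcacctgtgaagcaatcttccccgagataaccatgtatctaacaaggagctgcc
S100a8 (chr3:90668821-90669070, + strand): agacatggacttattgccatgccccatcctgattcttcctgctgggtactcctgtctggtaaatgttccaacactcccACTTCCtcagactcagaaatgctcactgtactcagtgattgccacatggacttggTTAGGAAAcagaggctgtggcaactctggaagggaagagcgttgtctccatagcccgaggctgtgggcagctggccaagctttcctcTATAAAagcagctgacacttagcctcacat
Sprr2d (chr3:92338890-92339139, + strand): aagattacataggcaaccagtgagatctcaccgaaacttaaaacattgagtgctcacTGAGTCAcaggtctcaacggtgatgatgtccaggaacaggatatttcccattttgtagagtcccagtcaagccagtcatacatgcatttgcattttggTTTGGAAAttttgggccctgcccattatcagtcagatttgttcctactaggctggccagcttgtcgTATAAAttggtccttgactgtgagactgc
Sprr2f (chr3:92364937-92365186, + strand): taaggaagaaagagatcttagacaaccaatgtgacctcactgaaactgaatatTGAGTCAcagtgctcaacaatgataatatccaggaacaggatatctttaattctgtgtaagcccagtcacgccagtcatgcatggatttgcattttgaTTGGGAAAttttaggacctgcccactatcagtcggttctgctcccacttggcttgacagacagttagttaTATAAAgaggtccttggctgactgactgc
Sprr2i (chr3:92407741-92407990, + strand): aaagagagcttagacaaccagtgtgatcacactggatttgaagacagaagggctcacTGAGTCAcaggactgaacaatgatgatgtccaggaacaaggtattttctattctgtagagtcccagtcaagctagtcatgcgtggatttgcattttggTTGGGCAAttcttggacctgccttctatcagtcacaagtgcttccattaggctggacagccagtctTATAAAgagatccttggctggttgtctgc

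The table of start regions held 17 windows of 300 bases (250 before and 50 after the start) for S100a9 and the genes described next. The AP-1 motif was in 7 of the 17, which were those of Sprr2b, Sprr2d, Sprr2e, Sprr2f, Sprr2h, Sprr2i and Clec2e, against 7.93% of all 27025 windows. The 6 Sprr2 windows belong to near copies of 1 gene family, so their matches are not independent of each other. The same holds for their part in the C/EBP and TATA counts below. In the 6 Sprr2 windows a C/EBP match began 95 to 99 bases before the start, a near-fixed place that can be seen in the 3 printed. The C/EBP motif was in 16 of the 17 windows, but it is short and was in 40.7% of all windows. The TATA box was in 9 of 17 (14.2% of all), the ETS motif in 5 (24.1%) and the NF-kB consensus in 2 (4.35%). The TATA match of S100a9 lay after its annotated start and is not printed. A match describes letters only, and binding was not measured.

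**Figure D1:**
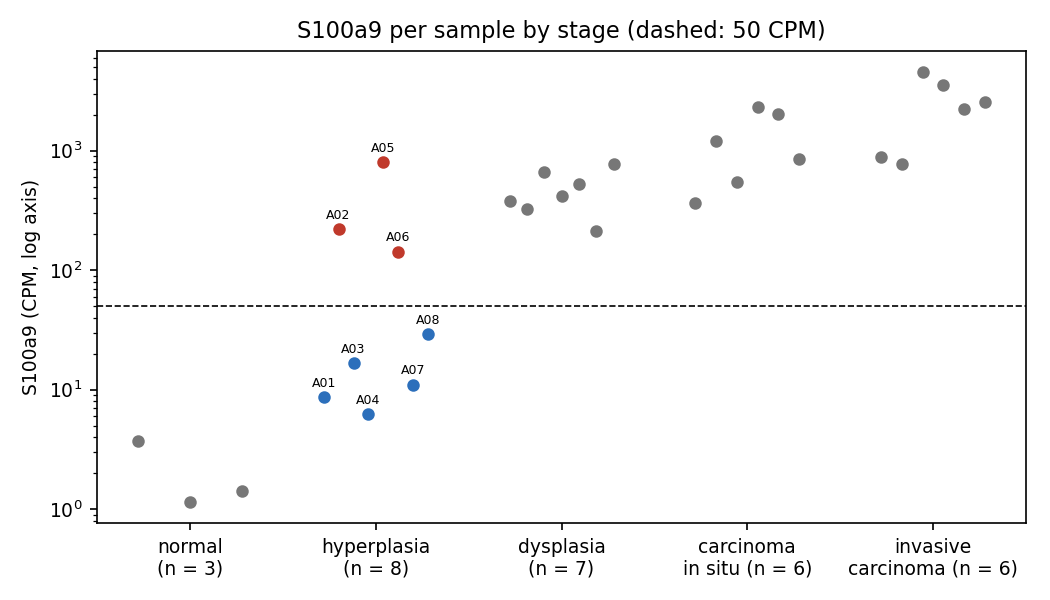
S100a9 in CPM (log axis) in each of the 30 samples, by stage, with high hyperplasia in red, low hyperplasia in blue and the line at 50 CPM. The 3 high samples sit between 141.9 and 796.9, and the 5 low samples between 6.21 and 29.1, above the 3 normal samples and below the 7 dysplasia samples.

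Few genes followed the division. Of 17637 genes tested beside S100a9, 21 (0.119%) were higher in every high than in every low sample with a mean difference of at least 1 on the log2(CPM + 0.5) scale, and 2 (0.0113%) were lower by the same rule. With no minimum difference, 205 genes (1.16%) lay wholly higher and 149 (0.845%) wholly lower. Of the 21 higher genes, here called separated, 12 differed by at least 4-fold and 7 by at least 8-fold, whereas the median difference over all genes was 0.0006. Among the 21 were S100a8, 8 members of the Sprr2 family, 4 genes of antimicrobial and acute phase proteins and their relatives (Chil1, Saa1, Defb3 and Rnase2b), 3 genes of proteases or a protease inhibitor (Klk6, Tmprss11g and Spink12), and Uox, Cxcl2, Ankk1 and Clec2e. On chromosome 3 lay 10 of the 21, against 5.24% of all genes tested. The 8 Sprr2 genes, which are neighbours there, are among these 10.

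S100a8, the partner of S100a9 in calprotectin, was at 152.8 CPM in A02, 552.7 in A05 and 103.1 in A06. In the low samples it was at 6.58 in A01, 14.2 in A03, 5.38 in A04, 11.2 in A07 and 20.9 in A08. The means were 269.5 ± 246.5 (SD, n = 3) and 11.6 ± 6.25 (SD, n = 5), and the mean difference of 4.25 on the log2 scale corresponds to 19.0-fold. The lowest high sample was 4.95 times the highest low sample. S100a8 (chr3:90668978-90670035) and S100a9 (chr3:90692632-90695721) kept a narrow ratio while S100a9 ran from 6.21 to 796.9 CPM: S100a8 over S100a9 was 0.694 to 0.727 in the high and 0.716 to 1.01 in the low samples.

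The Sprr2 genes gave the largest single difference. Sprr2d was at 195.5 CPM in A02, 561.3 in A05 and 93.9 in A06, against 7.30 in A01, 16.6 in A03, 2.08 in A04, 9.93 in A07 and 15.5 in A08. Its difference was 4.61, or 24.4-fold, and its groups were 5.66-fold apart at their nearest samples. Sprr2b, Sprr2e and Sprr2f differed by 3.69, 3.52 and 2.92, Sprr2i by 2.51, Sprr2g by 2.28, Sprr2h by 1.97 and the pseudogene Sprr2j-ps by 1.93. The family lies between Sprr2b (chr3:92316620-92318085) and Sprr2j-ps (chr3:92418082-92419396) as far as these members go. Not every member followed the division. Sprr2a3 was at 36.4 CPM in A05 but at 9.37 in A06, inside the 6.04 to 12.8 of the low samples, and its difference was 0.70. Sprr2k lay wholly higher in the high samples (9.37 to 15.2 CPM against 5.91 to 8.15) with a difference of 0.83.

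Summed over 13 Sprr2 genes, the level was 717.7 CPM in A02, 1712 in A05 and 429.9 in A06. The low samples held 99.4, 160.4, 65.3, 141.1 and 101.7 CPM (A01, A03, A04, A07 and A08). Normal tissue held 18.9 to 36.4 CPM and dysplasia 612.4 to 1850 CPM, so A05 and A02 lay inside the dysplasia range and A06 between low hyperplasia and dysplasia. Family members are near copies of each other, and how the authors' counting shared reads among them is not given in the sources used here. The share of a gene's 50-base transcript stretches that also occur in transcripts of other genes was 96.3% for Sprr2a1 and 61.1% for Sprr2a3. It was 14.1% for Sprr2b, 12.5% for Sprr2i, 10.2% for Sprr2e and 4.27% for Sprr2d, and none was shared for Sprr2g and Sprr2h.

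**Figure D2:**
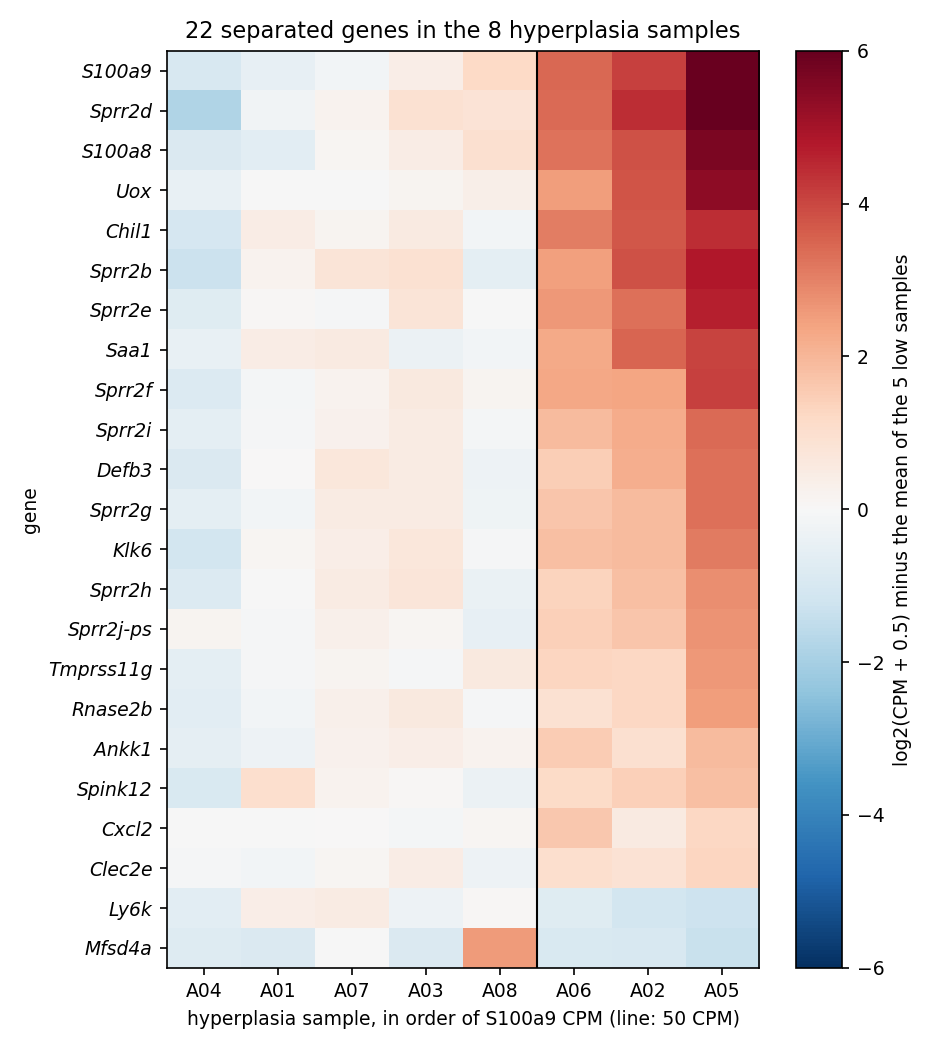
Difference of log2(CPM + 0.5) from the mean of the 5 low samples (colour) for S100a9 and 22 of the 23 separated genes (vertical axis) in the 8 hyperplasia samples, ordered by S100a9. Of the 21 higher genes, A05 (at the right) was highest in 20 and A04 (at the left) lowest in 17.

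The antimicrobial and acute phase genes differed by 1.57 to 3.74. Chil1, a chitinase-like secreted protein of inflamed tissue, was at 103.1 CPM in A02, 168.0 in A05 and 65.7 in A06, against 10.1, 11.04, 3.38, 8.42 and 6.54 in A01, A03, A04, A07 and A08. Its nearest samples were 5.95-fold apart, a wider gap than that of S100a8. Saa1, an acute phase apolipoprotein, was at 16.4, 24.4 and 6.71 CPM in A02, A05 and A06 and at 0.58 to 1.66 in the low samples. Saa1 shares 31.5% of its 50-base stretches with Saa2 and Saa3, so part of its reads may be theirs. Defb3, a beta-defensin, was at 35.5, 75.9 and 21.0 CPM in A02, A05 and A06, against 3.75 to 12.1 in the low samples. Rnase2b, of the eosinophil-associated ribonuclease family, was at 46.4 to 142.5 CPM against 15.4 to 36.2.

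Uox encodes urate oxidase, which turns urate into hydroxyisourate. It was at 17.3 CPM in A02, 54.0 in A05 and 7.11 in A06, against 0.80, 0.98, 0.46, 0.78 and 1.18 CPM in A01, A03, A04, A07 and A08. The difference was 3.89, and the 6.02-fold gap between the nearest samples was the widest of the 21 genes. Urah, whose product acts on hydroxyisourate next, was named after its values were seen: it was at 13.1, 31.6 and 15.5 CPM in the high and 7.22 to 12.4 in the low samples, a difference of 0.99 that narrowly missed the limit. Xdh, whose product makes urate, overlapped between the sets (156.5 CPM in A02 against up to 171.9 CPM in the low samples).

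Among the proteases, Klk6, a secreted kallikrein, was at 8.53, 20.5 and 8.01 CPM in A02, A05 and A06, against 0.63 to 3.38 CPM in the low samples. The membrane protease Tmprss11g was at 13.8 to 36.2 CPM against 3.46 to 8.46. Spink12, a Kazal-type inhibitor, was at 2.76 to 4.59 CPM against 0.29 to 2.43. The remaining genes were low. Ankk1 was at 2.86 to 5.87 CPM in the high and 0.67 to 1.80 in the low samples, and Clec2e at 4.55 to 6.21 against 1.72 to 3.34. Cxcl2, a neutrophil chemokine, had 47 reads in the 3 high and 10 in the 5 low samples, so its difference depends on the pseudocount. The 2 lower genes were Ly6k, with 13 reads in the high and 116 in the low samples, and Mfsd4a. Mfsd4a was at 7.33 to 9.93 CPM in the high samples and at 10.2, 10.4, 11.1 and 18.9 CPM in 4 low samples, and at 116.8 in A08. Its difference was -1.08 with A08 and -0.44 without it. A08 also held the most salivary gland transcripts of the 8 samples, as given below, and their part in Mfsd4a was not tested.

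The 3 high samples also differed among themselves. The order A05, A02, A06 held in 17 of the 21 genes. Leaving out A05 left 20 separated genes, 19 of them among the 21. Leaving out A02 gave 31 higher and 1 lower, and leaving out A06 gave 33 higher and 21 lower. With a high sample left out, the rule of no overlap is easier to meet. A limit of 25 CPM, which moves A08 to the high side, left 6 higher genes, of which 3 were among the 21.

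Beyond the calprotectin pair, the listed alarmins and injury keratins overlapped between the sets. Of 15 tested alarmins and injury keratins other than S100a9, S100a8 was the only separated gene, and the median difference was 0.26. Krt6b, an injury keratin, was at 7157, 9072 and 6099 CPM in A02, A05 and A06 and at 3127 to 6155 in the low samples, which overlapped. Krt16 overlapped too, with 3579 to 4711 CPM against 1745 to 4002. Of 45 cornified envelope genes outside the Sprr2 family none was separated and 1 lay wholly higher (median difference 0.18). Of all genes 0.119% were separated higher and 1.16% lay wholly higher, so 0 separated in so short a list is near that share. Sprr1a was at 286.2 to 551.7 CPM against 240.8 to 322.5. Of 25 acute phase and antimicrobial genes 3 were separated (Chil1, Saa1 and Defb3; median 0.17), and the siderophore-binding gene Lcn2 was at 2.71 to 12.8 CPM against 1.38 to 9.34, with A08 the highest low sample.

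Genes of cytokines known to induce such proteins in keratinocytes were not separated, and only 0.119% of all genes were separated higher. In the interleukin lists below, the share lying wholly higher in the high samples was above the 1.16% of all genes, and no gene lay wholly lower. In the interleukin-1 and interleukin-36 family none of 14 tested genes was separated and 2 lay wholly higher: Il1a, itself an alarmin, was at 14.6, 16.4 and 16.8 CPM in the high samples and 5.09 to 11.1 in the low ones, and Il1f6 (interleukin-36 alpha) was at 136.1 to 231.2 against 64.9 to 134.2. In the interleukin-17 and interleukin-20 axis none of 22 was separated and 6 lay wholly higher. Among these were Nfkbiz, an inducible cofactor of NF-kB (45.4 to 59.1 CPM against 18.2 to 37.4), and Zc3h12a, a ribonuclease that limits interleukin-17 signalling (41.2 to 62.4 against 18.1 to 39.8). Il17f was at 0.11 to 0.62 CPM against 0 to 0.11, a few reads per library. The neutrophil chemokines held 1 separated gene of 11 tested (Cxcl2), and Cxcl1 overlapped at 0.39 to 1.24 against 0.23 to 1.08 CPM.

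Markers of other cells did not divide the 8 samples in the same way. None of 22 tested neutrophil markers lay wholly higher or lower, and their median difference was 0.06. Of all genes 1.16% lay wholly higher and 0.845% wholly lower, so a count of 0 in so short a list is near those shares. Ly6g, which defines mouse neutrophils, had 0 reads in the 3 high samples, which allows at most 0.134 to 0.169 CPM per sample by counting error alone, and 4 reads in the low samples. The granule genes Camp and Elane also had 0 reads in the high samples, Ngp had 2 and Mpo 1, against 1, 4, 11 and 6 in the low ones. Retnlg had 8 reads in the 3 high and 28 in the 5 low samples. Some other markers of the list were not lower in the high samples. Mmp8 had 13 reads in the 3 high and 13 in the 5 low samples, and Prtn3 had 3 and 3. Stfa2l1 had 6 and 3, with all 6 in A06. Csf3r was at 1.65 to 1.79 CPM against 1.30 to 1.88, and Cxcr2 at 1.29 to 3.58 against 1.95 to 2.56. Without Asprv1 and Ltf, which epithelia also make, the summed neutrophil markers were at 16.9, 30.9 and 26.1 CPM in A02, A05 and A06 and at 17.1 to 21.6 in the low samples, so that A02 was the lowest of the 8. Stfa2, counted in this list, was at 3.08, 2.13 and 0.62 CPM in the high samples and 0.38 to 0.84 in the low ones.

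The median difference was 0.09 over 20 macrophage and monocyte markers, 0.08 over 20 T cell markers and 0.02 over 15 basal keratinocyte genes. It was 0.07 over 40 cell cycle genes, -0.05 over 31 skeletal muscle genes and -0.12 over 20 fibroblast genes. None of these lists held a separated gene, which is near the share of all genes (0.119% higher and 0.0113% lower). Of the T cell markers 1 lay wholly higher, and no gene of the other lists named here lay wholly higher or lower. Salivary gland genes had a median of -1.75 and varied within both sets: their sum was 44.8, 152.5 and 970.7 CPM in A02, A05 and A06 and 66.3, 1488, 69.7, 5192 and 21614 CPM in A01, A03, A04, A07 and A08. Type I interferon response genes had a median of -0.26, and their sum was 381.4 CPM in A05 against 650.0 to 824.3 in the other 7 samples. The part of these tissues and programmes in the 23 separated genes was not tested. In bulk samples, fewer cells of a type and less RNA per cell cannot be told apart.

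**Figure D3:**
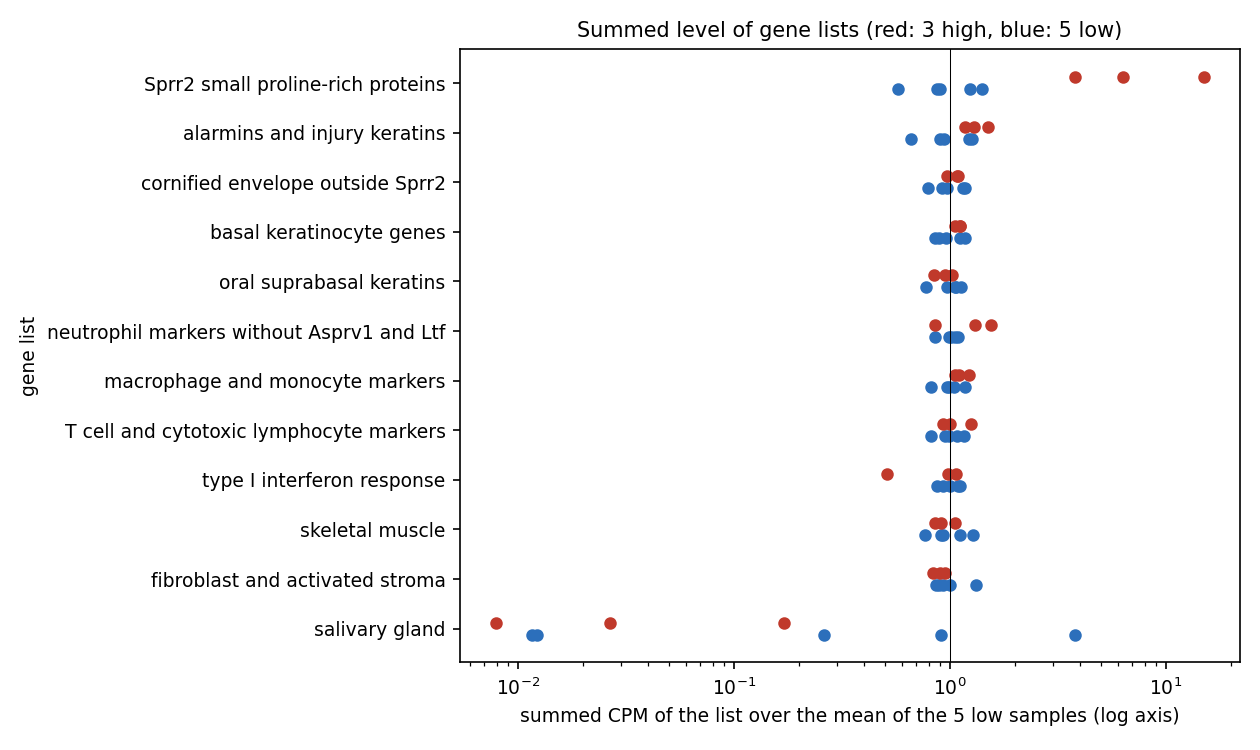
Summed CPM of 12 gene lists in the 3 high (red) and 5 low (blue) hyperplasia samples, divided by the mean of the low samples (log axis). The Sprr2 list lies apart (429.9 to 1712 CPM against 65.3 to 160.4), whereas the ranges of the red and blue points overlap in the 11 other lists.

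To ask whether the separated genes follow S100a9 outside hyperplasia, each gene was fitted in the 22 samples of the other stages with stage as a factor and log2(S100a9 CPM + 0.5) as a slope. A slope of 1 means a doubling for each doubling of S100a9 among samples of 1 stage. Of the 21 separated genes 15 (71.4%) had a positive slope at an adjusted p under 0.05 (edgeR's quasi-likelihood test, Benjamini-Hochberg over 17637 genes), against 54 of all genes tested (0.306%). The 15 made up 27.8% of those 54. The 8 separated Sprr2 genes were all among the 15. They are near copies within a family, so their calls are not independent of each other. None of the 21 was among the 27 genes with a negative slope (0.153%), and 20 had a slope above 0. The median slope was 0.62 over the 21 and 0.0001 over all genes. The 2 lower genes did not pass.

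S100a8 had a slope of 0.94 ± 0.04 (SE, n = 22; adjusted p = 2.86e-12, edgeR). All 8 separated Sprr2 genes passed, from Sprr2f at 0.51 ± 0.09 (adjusted p = 0.0234, edgeR) to Sprr2d at 0.75 ± 0.10 (adjusted p = 0.000611, edgeR), and Sprr2i had the smallest p among them (0.66 ± 0.06, adjusted p = 4.72e-06, edgeR). Uox had a slope of 0.72 ± 0.10 (adjusted p = 0.00148, edgeR). Defb3 followed at 0.68 ± 0.11 (adjusted p = 0.00674), Tmprss11g at 0.57 ± 0.08 (adjusted p = 0.00165) and Rnase2b at 0.53 ± 0.08 (adjusted p = 0.00389). Saa1 (0.62 ± 0.14) and Ankk1 (0.52 ± 0.12) passed narrowly, each with an adjusted p of 0.0499.

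Chil1, among the most divided genes of hyperplasia, had a slope of 0.65 ± 0.15 and missed the threshold (adjusted p = 0.0588, edgeR). Klk6 had 0.27 ± 0.30 (adjusted p = 0.662), with 87.2 CPM in the dysplasia sample B06 against 7.14 to 15.6 CPM in the other 6. Cxcl2 (0.65 ± 0.35), Clec2e (0.38 ± 0.12) and Spink12 (0.33 ± 0.22) did not pass either. Of the 54 genes with a positive slope 39 were not separated in hyperplasia. Of these 39, 6 lay wholly higher in the high samples, against 1.16% of all genes. Among the 6 were Urah (slope 0.57, adjusted p = 0.0248, edgeR), Il1f6 (slope 0.43, adjusted p = 0.0408, edgeR), Tcim, Smad1 and Casp4. Lcn2 had a slope of 0.74 ± 0.13 (adjusted p = 0.0176) and overlapped in hyperplasia.

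Among the negative slopes, Nr1d1, a nuclear receptor of the circadian clock, had -0.39 (adjusted p = 0.00967), Cobl -0.27, Tob1, an antiproliferative factor, -0.25, the matrix glycoprotein gene Tnxb -0.47 and the peroxisomal oxidase gene Acox2 -0.26. None of the 27 lay wholly lower in the high hyperplasia samples. Of all genes 0.845% did, so a count of 0 among 27 is near that share. Nr1d1 was at 111.0 to 143.0 CPM in the high and 119.6 to 155.4 in the low samples.

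**Figure D4:**
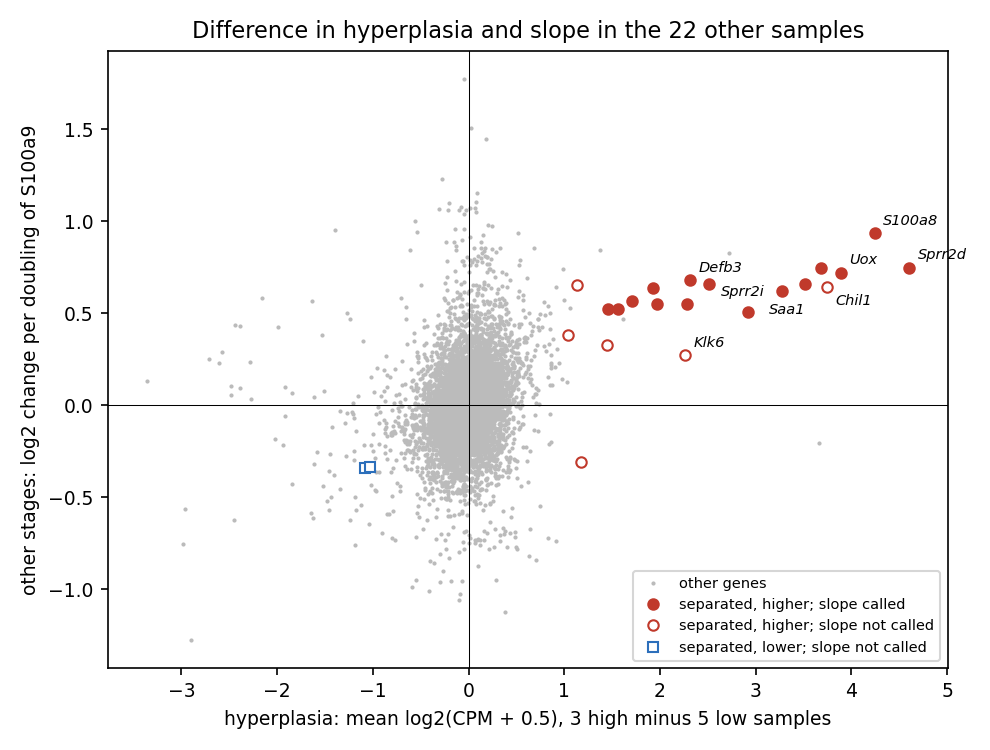
Each point is 1 gene, with its high minus low difference in hyperplasia on the horizontal axis (log2) and its slope on S100a9 in the 22 other samples on the vertical axis (log2 change per doubling). The 15 filled red points, separated genes with a called slope, lie between 0.51 and 0.94, while the slopes of the 2 lower genes (blue squares) were not called.

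Neutrophil markers had a median slope of 0.76 in the other stages, against 0.62 over the 21 separated genes and 0.0001 over all genes. Of 22 tested markers 1 passed (Stfa2, 0.53 ± 0.12, adjusted p = 0.0499, edgeR), against 0.306% of all genes. The neutrophil marker score averaged all tested markers of the list, including Asprv1 and Ltf, which epithelia also make. With this score as a covariate, 14 of the 21 separated genes had a called positive slope, against 31 of all genes (0.176%). Sprr2d then had 0.85 and S100a8 0.93. Chil1 then passed (0.85 ± 0.13, adjusted p = 0.00446). Cxcl2 had 0.04 in place of 0.65. In the 12 carcinoma samples alone 12 of the 21 passed (all genes 0.295%), and Klk6 was among them (0.85 ± 0.12, adjusted p = 0.0263). In the 7 dysplasia samples alone only S100a8 passed (0.94 ± 0.08, adjusted p = 0.0217; 1 gene of all, 0.00567%), and 18 of the 21 slopes were above 0.

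The number of called slopes changed with single libraries. Leaving out B06, the dysplasia sample lowest in S100a9, raised the count of positive slopes to 301 of all genes, and 17 of the 21 passed. Leaving out B05, C01, C03, C04, C05, C06, C07 or C10 lowered it to between 14 and 34, and with each of the 22 samples left out in turn 10 to 17 of the 21 passed.

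**Figure D5:**
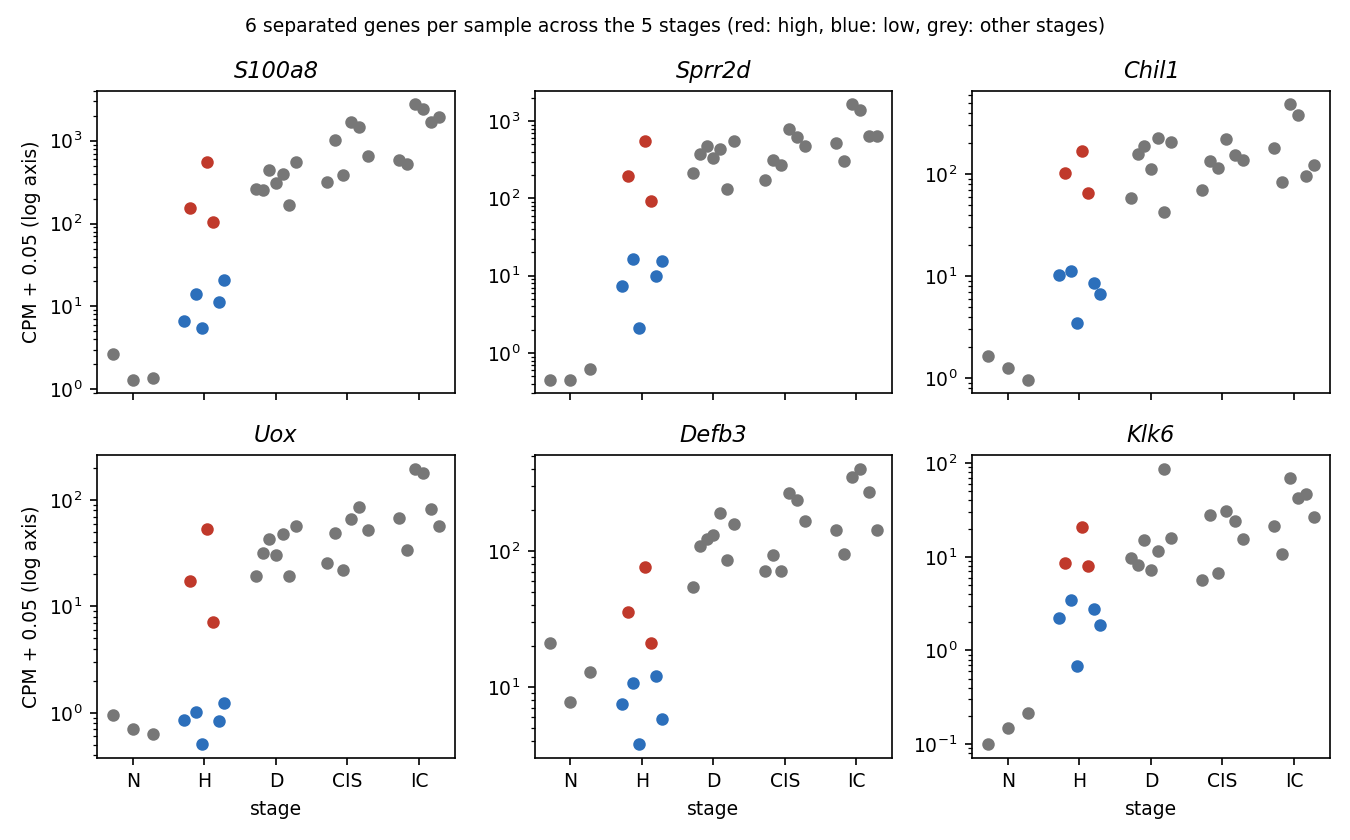
CPM + 0.05 (log axes) of 6 separated genes in each sample of the 5 stages (N normal, H hyperplasia, D dysplasia, CIS carcinoma in situ, IC invasive carcinoma), with high hyperplasia in red and low in blue. For Uox and Defb3 the low samples overlap the normal ones, while the 3 high samples lie above every normal sample in all 6 genes.

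The stages set a scale for these levels. Of the 21 separated genes 18 were higher in dysplasia than in normal tissue (edgeR, no hyperplasia sample in the fit), against 1911 of 17638 genes (10.8%), and none was lower (1705 genes, 9.67%). The 18 include the 8 separated Sprr2 genes, whose calls are not independent of each other. The median change over the 21 was 5.06 on the log2 scale, and 0.0119 over all genes. Sprr2d rose by 9.47 ± 0.86 (SE; adjusted p = 3.1e-06), Chil1 by 6.73 ± 0.83, Uox by 5.54 ± 0.76 and Defb3 by 3.04 ± 0.59. The changes of Cxcl2 (5.88) and Clec2e (0.70) did not pass. Normal sample D02 weighed on this fit: without it 409 genes (2.32%) were higher, 16 of the 21 among them, and Saa1 and Spink12 had adjusted p-values of 0.0632 and 0.0652.

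All 3 high samples exceeded each of the normal ones in the 21 genes (26.4% of all genes tested), and in none did all 3 lie below every dysplasia sample (2.28%). A05 was within the dysplasia range in 13 genes, above it in 8 (18.1% of all genes) and below it in none (14.9%). A02 was within it in 12, above it in 1 (17.4%) and below it in 8 (15.4%), and A06 within it in 9, above it in 1 (19.6%) and below it in 11 (7.56%). The 5 low samples lay below every dysplasia sample in 17 genes (1.2% of all genes). Hyperplasia values chose the genes, so these counts describe the members and are no test.

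Against normal tissue the low samples fell into different patterns by gene. In 11 of the 21 genes all 5 low samples were above every normal sample (18.3% of all genes). S100a8 was at 1.25 to 2.61 CPM in normal tissue and Klk6 at 0.05 to 0.17, below all 5 low samples. Sprr2f was at 0 to 0.05 CPM and Sprr2g at 0.45 to 0.99 CPM in normal tissue, also below them. Uox, in contrast, was at 0.58 to 0.90 CPM in normal tissue, inside the spread of the low samples, of which A03 and A08 lay above every normal sample. Saa1 was at 1.10 to 1.70 CPM in normal tissue against 0.58 to 1.66 in the low samples. Defb3 was at 20.9, 7.73 and 12.8 CPM in the 3 normal samples, none below the 7.42 of A01, and A04 and A08 held 3.75 and 5.80 CPM. Rnase2b was at 7.28 to 24.1 CPM in normal tissue and 15.4 to 36.2 in the low samples.

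In the carcinoma stages the ranges widened upwards. S100a8 was at 315.4 to 1694 CPM in carcinoma in situ and 517.9 to 2755 in invasive carcinoma, Uox at 21.9 to 85.6 and 34.1 to 197.4, and Sprr2d at 174.2 to 801.9 and 305.6 to 1652. Chil1 was at 69.5 to 218.9 and 83.2 to 482.7 CPM, ranges that include the 168.0 of A05.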

How the data were processed

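RNA from 30 mouse samples was sequenced, and the authors deposited 1 table of whole-number read counts per Ensembl gene. Libraries came from a stranded mRNA kit, per the labels' protocols, and the submitters' processing notes name cutadapt 2.4, STAR 2.7.2a and the build GRCm38. How reads were counted, with which strand setting and annotation, is not given in the sources used here, so overlapping genes on opposite strands may share reads. Of 55487 identifiers 55227 matched GENCODE M21, which gave symbols and positions.

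CPM is the count over the column total. The members and lists were chosen with earlier results of these data known. Hyperplasia samples were divided at an S100a9 level of 50 CPM, and a gene was separated where the 3 high and 5 low samples did not overlap and the means of log2(CPM + 0.5) differed by at least 1. Tests used edgeR 4.0.16 (quasi-likelihood, robust, TMM factors 0.892 to 1.057, default filter, 17638 genes kept) in R 4.3.3 on the 22 other samples. The slope fit held stage and log2(S100a9 CPM + 0.5), left S100a9 out of the genes tested, and used Benjamini-Hochberg adjustment with a threshold of 0.05. The dysplasia fit held stage alone. The SE of a slope comes from its F statistic. Total counts of 17725604 to 28023098 per sample set the precision, and limits for a count of 0 (3 reads) cover counting error only.

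Named were S100a8 and S100a9, all separated genes, the 12 largest increases and 8 largest decreases among separated genes whose higher set averaged 10 CPM or more, up to 4 members of each list described, and the 8 positive and 5 negative slopes with the smallest p; predicted genes and pseudogenes were left out of the rankings. A few genes that this rule takes in are not reported here by name, and they stay in the counts. Of 41 lists those closest to the separated genes or to other cell types are described. Alternatives were other normalizations (RLE factors), pseudocounts, folds, filters and limits, DESeq2 1.42.0, limma 3.58.1 with voom and sample weights, subsets of stages, composition scores as covariates, a replicate block, and leaving out each sample. Thinned counts and a salivary gland covariate were added after the data were seen. The scripts were tested on simulated data. Python 3.11.15 was used with pandas 2.3.3 and numpy 2.4.6 for tables, and with matplotlib 3.10.9 for figures.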

Additional observations from a re-analysis of the deposited data

Results flagged for a closer look

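In 96 groups of 4 or more samples (24 genes in 4 stages), 3 had a sample whose gap to the nearest other sample took up more of the group's range, on the log2 scale, than Dixon's 95% limit for the group's size. Chance alone gives this in about 1 in 20 groups. Klk6 in dysplasia had a gap of 0.694 of the range, because B06 was at 87.2 CPM and the other 6 samples at 7.14 to 15.6. Mfsd4a in hyperplasia had a gap of 0.664, because A08 was at 116.8 CPM and the other 7 samples at 7.33 to 18.9. Mfsd4a in dysplasia had a gap of 0.690, because B01 was at 184.9 CPM and the other 6 samples at 4.58 to 14.997. The summed level of 18 salivary gland genes was 21614 CPM in A08 and 35524 CPM in B01, the highest of each stage, and its part in Mfsd4a was not tested.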

How the results depend on the processing

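The differences in hyperplasia kept their direction, except that of Mfsd4a, which was 0.47 with the limit at 25 CPM: of 437 values under an alternative, 417 moved by less than 1 SD. A pseudocount of 0.1 gave 39 higher and 14 lower genes, one of 2 gave 1 lower gene, a fold of at least 1.5 gave 59 and 13, a fold of at least 4 gave 12 and 0, and the limit at 25 CPM gave 6 and 0, with 4 of the 6 having a called slope. Thinned counts gave 1 lower gene. Leaving out 1 sample gave 20 to 33 higher and 0 to 21 lower genes.

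Of 1043 slopes of named genes under an alternative, 135 lost their call and 13 gained one, and that of Tnxb turned to 0.0014 in dysplasia alone (adjusted p = 1), where the slope of Cxcl2 was -0.28 and the slope of Klk6 was -1.13, neither called in any direction there or over all 22 samples. Positive and negative calls numbered 22 and 6 without a filter, 146 and 110 with S100a8 as the predictor, 1 and 0 in dysplasia alone, where 1 separated gene passed, 31 and 0 with the neutrophil covariate, 241 and 264 with DESeq2, 1085 and 603 with voom, and 12 and 1 at an adjusted p under 0.01. Negative calls were 43 with a pseudocount of 2, 49 without normal samples, 17 with a muscle and 12 with a basal keratinocyte covariate. Leaving out 1 sample gave 14 to 301 positive and 0 to 284 negative calls, and 10 to 17 of the 21 separated genes when it was 1 of the 22 fitted, 15 to 18 of a redrawn set of 20 to 33 when it was a hyperplasia sample, and 0 of the lower genes. Dysplasia against normal gave 3270 higher and 3414 lower genes with voom, and 409 to 2210 higher, 185 to 2236 lower and 16 to 18 of the 21 when 1 sample was left out.

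With sample numbers as a replicate block, 1 positive and 0 negative slopes passed (edgeR), 1 of them in the 21 (20 of 21 above 0), and dysplasia against normal gave 687 higher and 434 lower genes. Samples that share a number did not deviate together: 5 of 13 pairs had a correlation over 0.1 (-0.37 to 0.495), and 2 of 17 samples correlated best with their own number, so the numbers were not taken as a pairing. Depth limits the genes with few reads: a count of 0 in a high sample allows up to 0.134 to 0.169 CPM.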
